A study of Rattus norvegicus with 24 samples.

Results

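The effect of ecdysterone in obesity was read from the livers of 6 obese Zucker rats fed ecdysterone (OE) and 6 obese Zucker rats fed the control diet (OC), 12 of the 24 arrays of the study, picked by their group labels and compared over all 23188 transcripts of the array. Rats of both groups were males, 25 weeks old at the start, of the strain Crl:ZUC-Leprfa, homozygous (fa/fa) for a leptin receptor allele that impairs the receptor in every tissue, and received the same maintenance diet for 4 weeks, with 0.5 g ecdysterone per kg of it in OE and none in OC. The other 12 arrays came from heterozygous (fa/+) lean rats with (LE, n = 6) or without (LC, n = 6) the same addition. Each array was hybridised with whole-liver RNA of 1 rat, so that a change in the share of a cell type and a change in RNA per cell cannot be told apart. Rats were killed non-fasted and shared cages in pairs, but the labels do not tie a rat to a cage, and the array numbers (19 to 24 for OE, 13 to 18 for OC) follow the groups, so that array order and diet cannot be told apart.

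Ecdysterone is a plant steroid with the structure of an insect moulting hormone, and mammals lack the receptor through which insects read it. In the fed liver, insulin and sugar switch on the synthesis of fatty acids through the transcription factors SREBP-1c and ChREBP, and insulin at the same time keeps FoxO factors out of the nucleus, which silences genes such as Irs2, Igfbp1, Pck1 and G6pc. Leptin-resistant Zucker rats overeat and have high insulin, and their livers keep making fat although the fasting genes respond poorly to insulin. The gene groups below were ordered accordingly, from the insulin-controlled genes to defence enzymes, transporters and the cell types of the liver.

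The signals were summarised over all arrays together, which brings their medians close, so that the medians do not measure quality. The study gives RNA integrity as a mean and SD over its array samples and not per array, so that OE and OC cannot be compared on it. The median signal lay between 6.52 and 6.61 on the OE arrays and between 6.53 and 6.60 on the OC arrays. An array correlated with the others of its group at a mean of 0.983 to 0.986 in OE and 0.986 to 0.988 in OC, slightly lower in OE. Array weights, which are lower for arrays that vary more, ran from 0.72 to 1.26 in OE and from 0.82 to 1.27 in OC. OE replicate 23 stood far from the other OE rats in 7 of the genes named here, more than any other rat, among them Srebf1, Pck1 and Gpam, where it was the lowest. Without it, 1170 transcripts met both of the study's criteria given below, against 981 with all rats. Leaving out another obese rat gave 890 to 1287, so that this rise is not particular to OE replicate 23. Albumin (Alb), the main plasma protein of hepatocytes, stood near the top of the scale with a lowest, median and highest log2 signal of 19.78, 19.87 and 19.92 in OE rats, against 19.85, 19.92 and 19.92 in OC rats. As a gauge of background, 1360 genes of smell and taste receptors had a median signal of 4.82, against 6.55 over all transcripts. The leptin receptor gene Lepr, whose fa allele both groups carry, had a lowest, median and highest log2 signal of 9.93, 10.78 and 12.40 in OE rats, against 10.12, 10.48 and 11.08 in OC rats, and the groups overlapped (exact permutation p = 0.433).

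No transcript differed between OE and OC after adjustment. In the limma fit with Benjamini-Hochberg correction over all transcripts, the lowest adjusted p was 0.83, 0 of 23188 transcripts (0%) passed 0.05, and 1322 had an unadjusted p under 0.05, against 1159.4 that chance alone would give. By the methods' t-test the lowest adjusted p was 0.451, and 1307 transcripts had an unadjusted p under 0.05. What follows is therefore a description of sizes and spreads, and words such as higher and lower refer to the measured means. The study's criteria, a fold change (FC) past 1.3 and an unadjusted p under 0.05, were met by 981 transcripts in the limma fit (4.23%), 507 of them higher (2.19%) and 474 lower (2.04%) in OE. Differences were small, with a median size of 0.13 on the log2 scale, and 97.9% of transcripts differed by less than 0.5. Past 2-fold, only 9 higher and 3 lower transcripts met both criteria. Of the 11607 transcripts below the median signal, 516 met both criteria (4.45%), and of the 11581 above it, 465 did (4.02%). Smell and taste receptor genes met both criteria in 78 of 1360 cases (5.74%), 36 higher and 42 lower, a share above that of all transcripts.

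**Figure D1:**
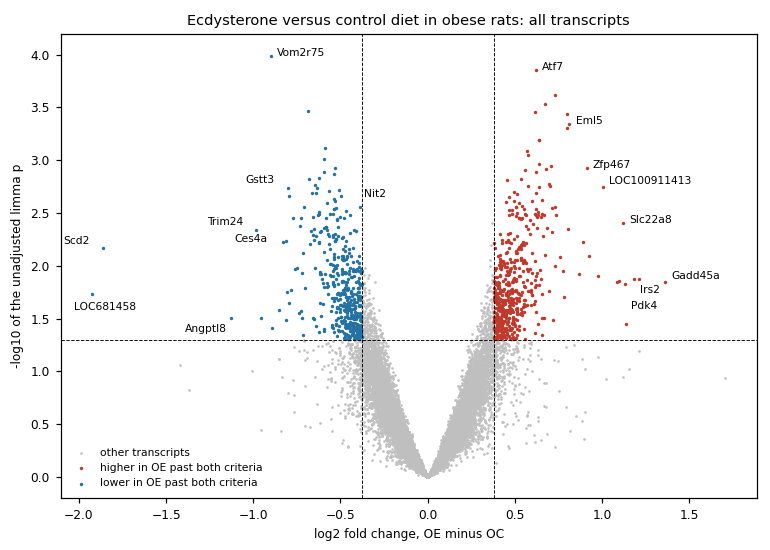
Log2 fold change of OE over OC (x axis) against the −log10 of the unadjusted limma p (y axis) for 23188 transcripts, 6 rats a group, with dashed lines at an FC of 1.3 and a p of 0.05. The 507 higher (red) and 474 lower (blue) transcripts form an even cloud on both sides, with Gadd45a at the right edge and the desaturase genes Scd2 and LOC681458 at the left.

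The study names 10 genes as the highest in OE, a list chosen on these same samples, so that their values are a description. Gadd45a, a stress and growth arrest gene that FoxO factors and p53 can switch on, led them with a lowest, median and highest log2 signal of 9.61, 10.56 and 11.05 in OE rats, against 7.91, 8.77 and 10.71 in OC rats. That is an FC of 2.57 (log2 1.36, SE 0.52, exact permutation p = 0.0238), with the SE here and below on the log2 scale. OC rats were spread more widely than OE rats, and 1 of them exceeded the OE median. Gimd1, a GTPase-like gene of the GIMAP family, had a lowest, median and highest log2 signal of 9.11, 9.74 and 10.80 in OE rats, against 7.37, 8.76 and 9.87 in OC rats (FC 2.32), also with overlap. Irs2, the insulin receptor substrate that liver uses after a fast and that insulin represses, had a lowest, median and highest log2 signal of 7.85, 8.20 and 8.99 in OE rats, against 6.17, 7.21 and 7.92 in OC rats (FC 2.27, SE 0.45, exact permutation p = 0.00649). Only the highest OC rat reached into the OE range of Irs2.

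Pdk4, the kinase that shuts off pyruvate dehydrogenase so that the cell burns fat in place of glucose, had a lowest, median and highest log2 signal of 14.07, 14.29 and 15.06 in OE rats, against 12.27, 13.44 and 14.27 in OC rats (FC 2.19, SE 0.44, exact permutation p = 0.0281). Here OC rats fell apart into 3 at OE level and 3 far below, whereas OE rats lay close together. Slc22a8, an organic anion transporter (OAT3), had a lowest, median and highest log2 signal of 11.71, 12.09 and 12.29 in OE rats, against 8.93, 11.23 and 12.24 in OC rats (FC 2.17). Its difference depended on OC replicate 16, the lowest rat, without which it was 0.72 on the log2 scale. Junb, a subunit of the AP-1 factor that answers growth and stress signals, had a lowest, median and highest log2 signal of 6.46, 7.13 and 8.46 in OE rats, against 5.99, 6.33 and 6.78 in OC rats (FC 1.83, SE 0.32, exact permutation p = 0.00649), and no longer met both criteria without OE replicate 23, its highest rat.

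The 4 other genes of that list were of another kind. LOC100911413, annotated as similar to the mucosal scavenger protein DMBT1, was the only one of the 10 without overlap, with a lowest, median and highest log2 signal of 10.36, 10.93 and 11.88 in OE rats, against 9.50, 10.01 and 10.28 in OC rats (FC 2.01, SE 0.29, exact permutation p = 0.00216, the smallest that 924 splits of 12 rats allow). Over all transcripts, 51 (0.22%) had no overlap between OE and OC, 30 with every OE rat above (0.129%) and 21 with every OE rat below (0.0906%). The gene annotated as Dmbt1 itself had a lowest, median and highest log2 signal of 9.46, 10.23 and 11.13 in OE rats, against 9.15, 9.66 and 10.06 in OC rats and did not meet both criteria (FC 1.51, exact permutation p = 0.108). Igkc, the constant part of the antibody kappa chain, had a lowest, median and highest log2 signal of 10.45, 10.77 and 11.28 in OE rats, against 8.78, 10.00 and 10.53 in OC rats (FC 1.97, exact permutation p = 0.0108). The zinc finger gene Zfp467 (FC 1.88) stayed low on the scale, at 6.12, 6.46 and 7.30 in OE against 4.73, 5.73 and 6.39 in OC. LOC102549464, annotated as similar to TBC1D14, had 7.34, 8.32 and 8.89 in OE against 6.64, 7.49 and 7.62 in OC (FC 1.86).

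Among the 10 genes the study names as the lowest in OE, Angptl8 came first, the hepatokine that feeding and insulin switch on and that steers fat to adipose tissue. It had a lowest, median and highest log2 signal of 10.72, 11.73 and 12.61 in OE rats, against 11.82, 12.87 and 13.58 in OC rats (FC −2.19, SE 0.50, exact permutation p = 0.0238). The groups overlapped, and Angptl8 no longer met both criteria without OE replicates 22 or 24 or OC replicates 14, 15 or 17. Nor did it in limma with robust eBayes and a trend. Ces4a, a carboxylesterase, had a lowest, median and highest log2 signal of 8.21, 8.64 and 9.69 in OE rats, against 9.19, 9.41 and 9.99 in OC rats (FC −1.78, exact permutation p = 0.0108), with 5 OE rats below every OC rat and 1 in their midst. Aqp11, an aquaporin of intracellular membranes, had a lowest, median and highest log2 signal of 10.59, 10.88 and 12.08 in OE rats, against 11.41, 11.93 and 12.18 in OC rats (FC −1.76, exact permutation p = 0.0195) and showed a like pattern with 1 high OE rat. Gstt3, a theta-class glutathione transferase, had a lowest, median and highest log2 signal of 11.59, 12.32 and 12.82 in OE rats, against 12.55, 13.19 and 13.62 in OC rats (FC −1.74, exact permutation p = 0.013).

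Further down, Enpp5 (a phosphodiesterase family gene) had 10.39, 10.56 and 11.67 in OE against 11.02, 11.53 and 12.06 in OC (FC −1.72), and RGD1559459, a gene without a given function, had 11.76, 12.34 and 12.92 in OE against 12.60, 13.01 and 13.94 in OC (FC −1.69). The pheromone receptor gene Vom2r75 had 4.11, 4.55 and 5.02 in OE against 4.94, 5.24 and 6.17 in OC (FC −1.86), Map3k15, a stress kinase gene, 3.97, 4.51 and 5.03 in OE against 4.78, 5.28 and 6.13 in OC (FC −1.73), and Hebp2, a haem-binding protein gene, 4.45, 4.89 and 5.52 in OE against 4.80, 5.76 and 6.39 in OC (FC −1.71). Their OE medians lay close to the median of the smell and taste genes, the gauge of background. For Trim24, a co-regulator of nuclear receptors, the array has 2 transcripts, which did not match: 1 had a lowest, median and highest signal of 7.91, 8.41 and 9.36 in OE, against 8.28, 9.85 and 10.19 in OC (FC −1.98, exact permutation p = 0.0433), and the brighter had 8.30, 9.04 and 9.51 in OE, against 7.87, 9.40 and 10.17 in OC (log2 −0.24, exact permutation p = 0.561).

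**Figure D2:**
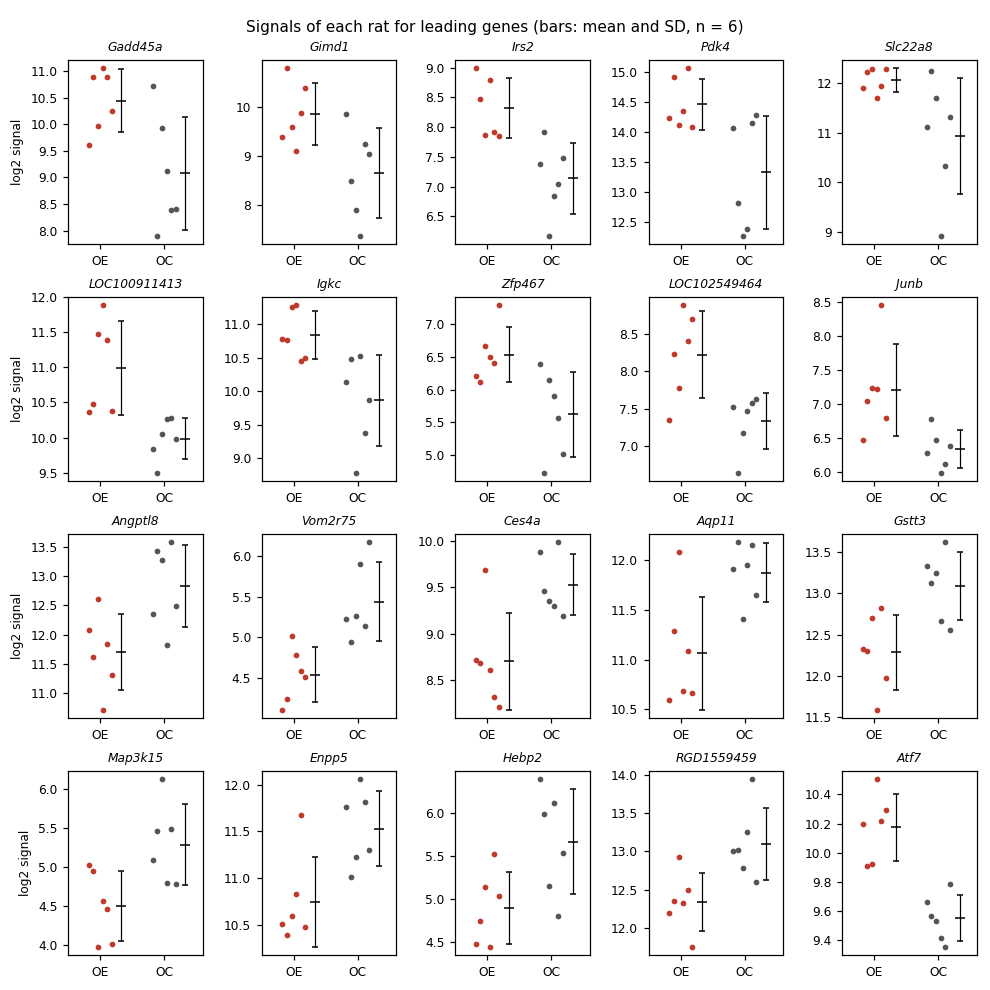
Log2 signals (y axis) of each of 6 OE (red, left) and 6 OC rats (grey, right) for the study's 10 highest genes (top 2 rows), 9 of its 10 lowest genes and Atf7, with mean and SD as bars. Of these 20 genes, the groups do not overlap for LOC100911413 and Atf7, and for Pdk4 the OC rats split into 3 high and 3 low.

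Ranked by p rather than by FC, and among transcripts above the median signal, another set of genes came first. Of these, Spry2, Spag8 and Olr302 had OC means under that median of 6.55 (6.20 for Spry2 and 6.42 for Spag8), and Thoc6 had an OE mean of 6.30, so that they passed it through the group in which they were high. Atf7, a factor of the CREB/ATF family, had the smallest p of any gene above the median signal, with a lowest, median and highest log2 signal of 9.91, 10.21 and 10.50 in OE rats, against 9.36, 9.55 and 9.79 in OC rats (FC 1.54, SE 0.14, exact permutation p = 0.00216), and every OE rat exceeded every OC rat. The same held for the immune gene Lst1 (FC 1.47), the sperm gene Spag8 (FC 1.62) and the olfactory receptor gene Olr302 (FC 1.37), all 3 with OE medians of 6.97 to 8.15. Over all transcripts, 30 (0.129%) had every OE rat above every OC rat. As the genes here were picked for a small p, their separation adds nothing independent. With overlap between the groups, the next were LOC499136 (FC 1.59), the microtubule gene Eml5 (FC 1.76), Nisch (nischarin, 12.12, 12.37 and 12.84 in OE against 11.50, 11.82 and 12.38 in OC, FC 1.49), Prr16, which is known to promote cell size (FC 1.49), Adad2 (FC 1.41), Poldip3, an mRNA export gene (FC 1.38), Clec2l (FC 1.44), the centrosome gene Cep112 (FC 1.45), the growth factor antagonist Spry2 (FC 1.66) and Anks1a (FC 1.42).

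On the lower side, Nit2, an amidase that clears a product of glutamine metabolism, had tight groups, with a lowest, median and highest log2 signal of 14.02, 14.17 and 14.35 in OE rats, against 14.51, 14.58 and 14.64 in OC rats. Its FC of −1.31 lay at the edge of the criterion, and it no longer met both criteria without OE replicates 22, 23 or 24 or OC replicate 14. Nor did it under quantile normalisation, with array weights or with the clock score described below as a covariate. The groups of Nit2 did not overlap. Entpd7, a nucleotidase (FC −1.51), did not overlap either, while the other transcript of this gene differed by −0.19 on the log2 scale. Every OE rat lay below every OC rat in 21 of all transcripts (0.0906%). The remaining genes were LOC100910833, similar to the methyltransferase SETD3 (FC −1.45), the defensin gene Defb10 (FC −1.54), the apoptosis gene Siva1 (FC −1.48), the mRNA export gene Thoc6 (FC −1.58), Sigirr, a brake on interleukin-1 and Toll-like receptors (FC −1.44), Cttnbp2nl (FC −1.54), Il20rb, a subunit of interleukin-20 receptors (FC −1.36), which no longer met both criteria without OC replicate 18, the zinc finger gene Zbtb26 (FC −1.57) and Bche, the butyrylcholinesterase of plasma (FC −1.49). The ribosomal gene Rps29 had 16.59, 17.61 and 18.24 in OE against 17.72, 18.23 and 18.43 in OC (FC −1.55). The array has 3 further transcripts of that name, which differed by −0.52, −0.53 and −0.58 on the log2 scale, and near-identical copies of such genes may share probes.

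Genes that insulin holds down in liver were mixed. Of 25 measured, 14 were higher and 11 lower in OE, and their median was 0.05 on the log2 scale, against −0.0021 over all transcripts. Gadd45a, Irs2, Pdk4 and Foxo3 met both criteria on the higher side, and none on the lower side. Over all transcripts, 2.19% met both on the higher side and 2.04% on the lower side, the shares to set beside every list count below. Foxo3, a FoxO factor itself, had a lowest, median and highest log2 signal of 9.53, 10.09 and 10.44 in OE rats, against 9.01, 9.59 and 9.74 in OC rats (FC 1.47, SE 0.20, exact permutation p = 0.0108). Pck1, Igfbp1 and G6pc, the classical members of the group, did not meet the criteria. Pck1, the key enzyme of glucose synthesis, had 15.14, 16.38 and 16.66 in OE against 15.48, 15.72 and 16.88 in OC (log2 0.25, 95% interval −0.48 to 0.98). Igfbp1, the binding protein of insulin-like growth factors, had 8.68, 9.05 and 10.89 in OE against 7.18, 8.96 and 10.45 in OC (log2 0.47, 95% interval −1.04 to 1.98). G6pc, the enzyme that releases glucose, had 9.50, 10.73 and 11.72 in OE against 9.12, 10.45 and 14.27 in OC (log2 −0.67, 95% interval −2.10 to 0.75). Rats of 1 group differed more among themselves than the group means did, and at this spread a difference was not detectable for these 3 genes. The factors Foxo1 (log2 −0.22), Ppargc1a (log2 0.42) and Trib1 (log2 0.54) did not meet the criteria.

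Upstream of these genes, 18 of 30 genes of the insulin receptor, PI3K, AKT and mTOR pathway were higher and 12 lower, with a median of 0.01, and only Irs2 and Foxo3 met both criteria. The insulin receptor gene Insr differed by 0.08 on the log2 scale (95% interval −0.23 to 0.39), Irs1 by −0.01 (−0.46 to 0.44), the kinase genes Akt1 by −0.16 (−0.76 to 0.45) and Akt2 by −0.07 (−0.32 to 0.19). Of the substrate pair, therefore, Irs2 alone stood apart by the criteria.

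Fed-state genes of fat synthesis leaned to the lower side. Of 24 measured genes, 22 were lower in OE and 2 higher, with a median of −0.28 on the log2 scale, against −0.0021 over all transcripts, but only Angptl8 and Scd2 met both criteria. Scd2, Srebf1 and Dgat2 of this list are also among the genes that the study picked because they rose in obesity. The list was also chosen with earlier results of these data known, so that its lower side in OE is not independent of the OC values. With each of the 12 rats left out in turn, 20 to 23 genes of this list were lower and its median stayed between −0.32 and −0.17, with −0.17 without OC replicate 13. The mean level of the list per rat, set against the OC mean, was −0.56 to −0.02 (median −0.42) in OE and −0.25 to 0.30 (median −0.05) in OC. The groups overlapped, with 5 OE rats below every OC rat. Scd2, a desaturase that makes monounsaturated fatty acids, had a lowest, median and highest log2 signal of 10.20, 11.40 and 12.98 in OE rats, against 10.47, 13.78 and 16.03 in OC rats (FC −3.63, SE 0.64). By limma, whose spread for this gene also takes in the lean rats, this met both criteria (unadjusted p = 0.0068). It did not by the methods' t-test, and by the exact permutation test p was 0.102. The SD was 1.08 in OE and 2.33 in OC, where 3 rats were far above all OE rats and the other 3 lay within the OE range. LOC681458, by its annotation a relative of the desaturase SCD3 and a gene the study picked for its rise in obesity, behaved alike, with 10.09, 11.70 and 13.83 in OE against 10.33, 13.53 and 17.40 in OC (FC −3.80, exact permutation p = 0.156). Without OC replicate 13, its highest rat, the difference of LOC681458 was −1.17 on the log2 scale, and the gene no longer met both criteria by the methods' t-test or without OE replicate 21 or OC replicates 13, 16 or 17.

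Apart from Mlxipl, the central enzymes and factors of this pathway given here had the same sign. By limma none of them, Mlxipl included, met both criteria. Srebf1, the gene of SREBP-1c, had 14.15, 15.59 and 15.87 in OE against 15.32, 16.03 and 16.40 in OC (log2 −0.49, SE 0.27, exact permutation p = 0.139). Dgat2, which completes triglycerides, had 14.21, 15.78 and 16.62 in OE against 15.05, 16.17 and 17.32 in OC (log2 −0.69, exact permutation p = 0.195). OE and OC overlapped for both genes, and without OE replicate 23 the difference was −0.24 for Srebf1 and −0.41 for Dgat2. Fasn, the fatty acid synthase, had 16.54, 17.30 and 17.80 in OE against 17.40, 17.76 and 18.08 in OC (log2 −0.47). Its exact permutation p within the obese rats was 0.026, while limma, whose spread for this gene also takes in the lean rats, gave an unadjusted p of 0.264. By the methods' t-test Fasn met both criteria (FC −1.39). Acly differed by −0.15 (95% interval −0.69 to 0.39), Acaca by −0.11 (−0.85 to 0.64), Elovl6 by −0.37 (−1.77 to 1.02), Gpam by −0.45 (−1.19 to 0.29, and −0.13 without OE replicate 23), Me1 by −0.51 (−1.33 to 0.30) and the bright desaturase gene Scd1 by −0.07 (−0.41 to 0.28). Mlxipl, the gene of ChREBP, was 1 of the 2 with a positive sign (log2 0.35, SE 0.21).

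**Figure D3:**
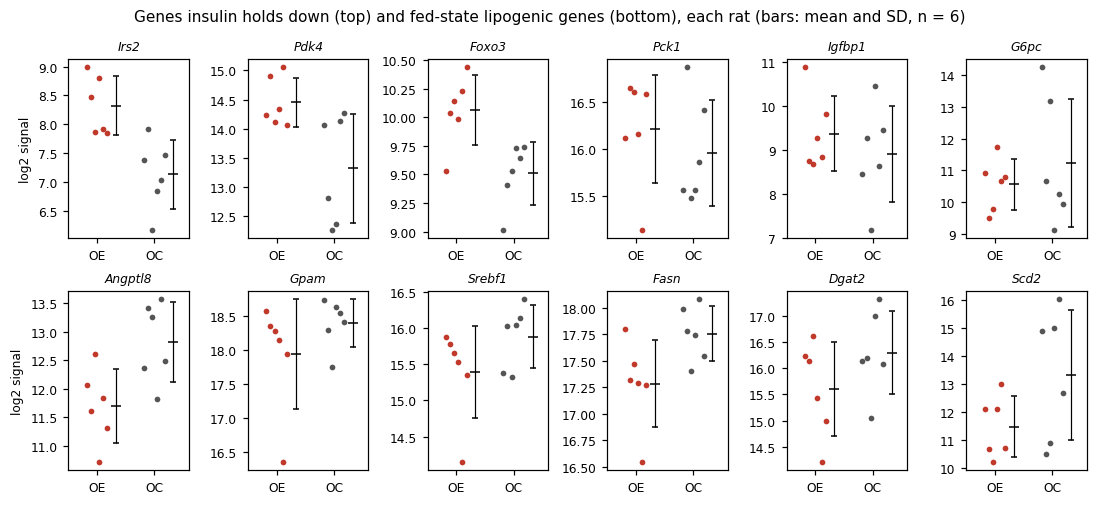
Log2 signals (y axis) of 6 OE (red, left) and 6 OC rats (grey, right) for 6 genes that insulin holds down (top) and 6 fed-state lipogenic genes (bottom), with mean and SD as bars. Irs2, Pdk4 and Foxo3 sit higher in OE while Pck1, Igfbp1 and G6pc overlap fully, and all 6 lipogenic genes have lower OE means, with 1 OE rat far below the others for Srebf1 and Gpam.

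Of 31 lipid synthesis genes that the study picked because they rose in obesity, 27 were lower and 4 higher in OE, with a median of −0.29 (−0.19 without OC replicate 13), and Scd2, LOC681458 and Aacs met both criteria by limma. As these genes were chosen for high values in OC, the same rats with which OE is compared, their lower side in OE is not independent of the choice. Aacs, which activates acetoacetate for lipid synthesis, had 7.58, 7.97 and 8.87 in OE against 7.94, 8.52 and 9.25 in OC (FC −1.36, exact permutation p = 0.147). Aacs no longer met both criteria by the methods' t-test or without OE replicates 20, 21 or 22 or OC replicates 13, 15, 17 or 18. Nor did it with obese arrays alone or with the clock score described below as a covariate. Genes of cholesterol synthesis and uptake were lower in 17 and higher in 6 of 23 cases, with a median of −0.18 (−0.09 without OC replicate 13 and −0.08 without OE replicate 22), and by limma Aacs was the only one of them to meet both criteria. Ebp, a sterol isomerase of this pathway, differed by −0.27 (exact permutation p = 0.141).

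Fatty acid oxidation genes under PPAR alpha lay on both sides of 0. Of 25 genes measured, 15 were higher and 10 lower, with a median of 0.05. Besides Pdk4 only Decr1, which clears unsaturated intermediates of oxidation, met both criteria, with 12.26, 13.07 and 13.53 in OE against 12.44, 12.64 and 12.91 in OC (FC 1.32, exact permutation p = 0.0671); it no longer met both criteria by the methods' t-test or without OE replicates 19, 20, 21, 22 or 24 or OC replicates 13, 16 or 17. Cpt1a, the gate of mitochondrial oxidation, differed by 0.46 (95% interval −0.46 to 1.38) and Fgf21, a fasting hormone, by 0.08 (−0.62 to 0.77).

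Promoter sequences are shown for 4 genes of the insulin and stress response among the study's lists, because these genes are among those that led the differences described above. They come from the RefSeq promoter table for build GRCr8, which holds 14 of the 20 genes of the study's lists, and run from 250 bases before to 50 bases after the start, 5′ to 3′ on the gene's strand. The windows are chr4:97486750-97487049 on the minus strand for Gadd45a, chr4:34568280-34568579 on the minus strand for Pdk4, chr19:40080876-40081175 on the plus strand for Junb and chr8:28652305-28652604 on the plus strand for Angptl8. Capitals mark the FoxO core TGTTTAC, the CCAAT box CCAAT and the TATA box TATAAA on either strand, which do not overlap one another here.
Gadd45a: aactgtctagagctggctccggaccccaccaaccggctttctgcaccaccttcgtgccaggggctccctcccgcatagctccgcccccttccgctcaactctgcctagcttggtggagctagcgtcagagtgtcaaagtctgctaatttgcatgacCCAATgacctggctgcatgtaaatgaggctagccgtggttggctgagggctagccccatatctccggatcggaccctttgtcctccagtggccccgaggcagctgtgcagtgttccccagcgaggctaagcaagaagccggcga
Pdk4: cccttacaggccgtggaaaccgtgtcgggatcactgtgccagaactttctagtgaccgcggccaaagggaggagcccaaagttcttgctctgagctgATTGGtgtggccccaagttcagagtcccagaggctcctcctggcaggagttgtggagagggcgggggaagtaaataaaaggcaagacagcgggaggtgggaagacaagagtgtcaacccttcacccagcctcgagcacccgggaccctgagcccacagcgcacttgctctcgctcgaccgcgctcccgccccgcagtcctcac
Junb: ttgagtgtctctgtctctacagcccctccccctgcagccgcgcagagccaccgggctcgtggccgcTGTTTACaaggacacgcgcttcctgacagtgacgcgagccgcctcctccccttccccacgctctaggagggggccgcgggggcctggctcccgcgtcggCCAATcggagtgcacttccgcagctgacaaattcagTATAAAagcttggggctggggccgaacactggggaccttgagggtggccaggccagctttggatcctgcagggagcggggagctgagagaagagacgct
Angptl8: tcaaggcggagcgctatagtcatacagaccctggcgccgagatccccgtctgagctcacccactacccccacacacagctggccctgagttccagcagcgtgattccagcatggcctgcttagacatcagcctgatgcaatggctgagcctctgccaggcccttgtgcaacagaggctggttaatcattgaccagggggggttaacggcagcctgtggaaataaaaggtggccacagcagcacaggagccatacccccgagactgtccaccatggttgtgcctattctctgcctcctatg
The FoxO core was found once, in the Junb window at base 67, and 3.78% of all 33469 promoters in the table hold it. A CCAAT box stood in the windows of Gadd45a (base 157), Pdk4 (base 98, minus strand) and Junb (base 166), and in 37.5% of all promoters, and a TATA box in that of Junb (base 202), as in 14.2% of all. The E-box CACGTG (6.42% of all promoters), the cyclic AMP element TGACGTCA (1.83%) and the AP-1 site TGANTCA (7.33%), also searched on both strands, were in none of the 4 windows.

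Immediate early genes, the first to be transcribed after a growth or stress signal, leaned to the higher side. Of 31 measured, 23 were higher and 8 lower in OE, with a median of 0.21, and Fos, Junb, Cebpd and Fosl2 met both criteria. On the higher side, 2.19% of all transcripts met both. Fos had a lowest, median and highest log2 signal of 5.63, 6.31 and 6.53 in OE rats, against 5.52, 5.69 and 5.88 in OC rats (FC 1.41, SE 0.18, exact permutation p = 0.013). Cebpd, a C/EBP factor of the acute phase, had 6.20, 6.31 and 7.22 in OE against 5.64, 6.01 and 6.44 in OC (FC 1.42, exact permutation p = 0.0411). Fosl2 had 4.92, 5.33 and 6.02 in OE against 4.82, 4.99 and 5.14 in OC (FC 1.35, exact permutation p = 0.0303). All 3 are dim on the array, between background and the median of all transcripts. Cebpd no longer met both criteria without OE replicates 21 or 23 or OC replicate 17, and Fosl2 no longer met both criteria without OE replicates 22 or 23, with a difference of 0.31 on the log2 scale without OE replicate 23. Larger but noisier differences were those of Jun, at 6.58, 8.11 and 11.00 in OE against 6.43, 7.22 and 8.67 in OC (log2 1.12, exact permutation p = 0.145), Myc (log2 0.88, exact permutation p = 0.123) and Dusp1, a phosphatase that ends MAP kinase signals (log2 0.73, exact permutation p = 0.184). Single rats moved these 3 genes, to 0.61 for Jun without OE replicate 23, 0.54 for Myc without OC replicate 17, and 0.46 without OC replicate 18 or 1.09 without OE replicate 23 for Dusp1. With each rat left out in turn, 22 to 24 of the 31 stayed higher.

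Growth arrest and p53 genes lay on both sides of 0. Of 23 measured, 10 were higher and 13 lower, with a median of −0.02. Eda2r, a death receptor under p53, met both criteria beside Gadd45a, with 7.18, 7.34 and 7.98 in OE against 6.04, 7.05 and 7.31 in OC (FC 1.48, exact permutation p = 0.0195), but no longer met both criteria without OC replicate 16. Cdkn1a, the p21 inhibitor of the cell cycle, differed by −0.03 (95% interval −0.93 to 0.88) and Mdm2, the ligase that degrades p53, by 0.17 (−0.22 to 0.56). Of the other Gadd45 genes, Gadd45b differed by −0.08, and Gadd45g by 1.71 with 5.41, 8.70 and 10.81 in OE against 5.36, 6.15 and 9.45 in OC (exact permutation p = 0.158), a wide spread among OE rats. The p53 targets Rps27l (FC 1.48) and Ddb2 (FC 1.46), both outside the list and chosen after their values were seen, met both criteria.

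A group of genes of pre-mRNA splicing and nuclear speckles was also chosen after the values were seen, and is given as a description. All 16 were higher in OE (49.5% of all transcripts were), with a median of 0.27, and Leng8, Ccnl1, Ddx17, Srsf5 and Pnisr met both criteria. Leng8 had 10.32, 10.70 and 11.35 in OE against 9.79, 10.07 and 10.58 in OC (FC 1.53, exact permutation p = 0.013). Ccnl1, a cyclin of the splicing machinery, had 11.15, 11.39 and 11.55 in OE against 10.62, 10.81 and 11.21 in OC (FC 1.44, exact permutation p = 0.00433). Srsf5 no longer met both criteria without OE replicate 24, and Pnisr no longer met both criteria without OE replicates 19, 22 or 24 or OC replicates 14 or 15, so that 3 of the 16 met them without OE replicate 24. Per rat, the mean of the 16 genes relative to OC was 0.03 to 0.67 (median 0.25) in OE and −0.31 to 0.21 (median 0.02) in OC.

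Genes of glutathione metabolism leaned to the lower side. Of 34 genes of glutathione transfer, synthesis and the NRF2 response, 25 were lower and 9 higher, with a median of −0.09 (−0.04 without OE replicate 22 and −0.14 without OE replicate 23), and Gstt3, Gsta2, Gstk1, Gsta5 and Gstm7 met both criteria, all lower. On the lower side, 2.04% of all transcripts met both. Gstk1, the transferase of mitochondria and peroxisomes, had a lowest, median and highest log2 signal of 13.95, 14.94 and 15.60 in OE rats, against 15.17, 15.54 and 15.75 in OC rats (FC −1.57, SE 0.22, exact permutation p = 0.0173). Gsta2, an alpha-class transferase, had 12.34, 12.91 and 13.04 in OE against 13.00, 13.29 and 13.43 in OC (FC −1.41, exact permutation p = 0.00433), and its close relative Gsta5 had 13.64, 13.99 and 14.46 in OE against 14.22, 14.47 and 14.63 in OC (FC −1.34, exact permutation p = 0.013). These 2 are close paralogues, whose probes may not separate them, and Gsta5 no longer met both criteria without OE replicates 22 or 23. Gstm7, of the mu class, had 10.77, 11.31 and 11.78 in OE against 11.52, 11.76 and 12.25 in OC (FC −1.45, exact permutation p = 0.013) and no longer met both criteria without OE replicate 23. Gstz1, of the zeta class, fell short of the FC criterion with 15.42, 16.07 and 16.24 in OE against 16.00, 16.33 and 16.59 in OC (log2 −0.36, exact permutation p = 0.026). Among the inducible NRF2 targets, Nqo1 differed by 0.14 (95% interval −0.43 to 0.71), Hmox1 by −0.19 (−0.84 to 0.46), Gclc, the gate of glutathione synthesis, by −0.24 (−0.72 to 0.24) and Txnrd1 by 0.27 (−0.02 to 0.57). Gpx1, a glutathione peroxidase outside the list that was chosen after its values were seen, had 15.98, 17.27 and 17.72 in OE against 17.46, 17.76 and 18.01 in OC (FC −1.53), or −0.38 on the log2 scale without OE replicate 24.

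Carboxylesterases, which split esters of drugs and lipids, were lower in 11 of 13 cases, with a median of −0.20, but only Ces4a met both criteria, and Ces2a (log2 −0.49), Ces2i (−0.39) and Ces2g (−0.30) did not. Of 7 aquaporins, 6 were lower (median −0.19, or −0.07 without OE replicate 24 and −0.29 without OE replicate 21), and only Aqp11 met both criteria. The water and glycerol channels Aqp1 (log2 −0.55, exact permutation p = 0.206), Aqp7 (−0.34, p = 0.0584 by the same exact test) and Aqp8 (−0.19) had the same sign. Cytochrome P450 genes of drug and steroid metabolism were lower in 20 of 28 cases, with a median of −0.10 (−0.14 without OE replicate 19), and only Cyp2a3 met both criteria (FC −1.44), at 5.24, 5.43 and 5.66 in OE against 5.63, 5.90 and 6.51 in OC, near the dim end of the scale. The male-specific Cyp2c11, which growth hormone controls, had 15.76, 17.60 and 18.53 in OE against 15.80, 16.86 and 17.55 in OC (log2 0.63, exact permutation p = 0.242).

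Of 18 bile acid genes, 14 were lower and 4 higher, with a median of −0.07, and none met both criteria. Cyp7a1, which sets the pace of bile acid synthesis, varied widely among rats, with a lowest, median and highest log2 signal of 8.70, 11.26 and 12.65 in OE rats, against 10.01, 12.51 and 15.73 in OC rats (FC −2.68, 95% interval on the log2 scale −3.06 to 0.22, exact permutation p = 0.18). Its difference of −1.42 on the log2 scale was −0.78 without OC replicate 16 and −0.94 without OE replicate 20, and with the clock score described below as a covariate it was −1.66 and met both criteria. Cyp27a1, of the acidic pathway, had 13.47, 14.00 and 14.26 in OE against 14.01, 14.25 and 14.61 in OC (log2 −0.34, exact permutation p = 0.026, limma p = 0.0841). Over all transcripts, 2.19% met both criteria on the higher side. Among 21 organic ion transporters, 12 were higher and 9 lower, with a median of 0.03, and 4 met both criteria, all higher. Beside Slc22a8 these were Slc22a25 with 7.09, 8.02 and 8.26 in OE against 6.34, 7.07 and 7.81 in OC (FC 1.72, exact permutation p = 0.0281), Abcc2, the canalicular export pump of conjugates, with 14.73, 15.30 and 15.76 in OE against 14.23, 14.70 and 15.76 in OC (FC 1.43, exact permutation p = 0.106), and Slc22a6 (OAT1), which is dim in liver, with 5.19, 5.60 and 5.77 in OE against 4.58, 5.24 and 5.38 in OC (FC 1.33, exact permutation p = 0.0216). Slc22a25 no longer met both criteria without OC replicates 16 or 17, Abcc2 no longer met both criteria by the methods' t-test or without OE replicates 20 or 23 or OC replicates 14, 16 or 18, and Slc22a6 no longer met both criteria without OE replicates 20 or 24 or OC replicate 14. Slc22a7 (OAT2) differed by 0.09 (95% interval −0.24 to 0.41) and Slco1a1 by 0.14 (−0.16 to 0.43).

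Receptors through which ecdysterone or related steroids have been proposed to act did not meet the criteria. Of 17 measured, 10 were higher and 7 lower, with a median of 0.05. The oestrogen receptor gene Esr1 had 8.99, 9.94 and 10.34 in OE against 9.70, 9.91 and 10.25 in OC (log2 −0.15, 95% interval −0.68 to 0.39). Esr2 (2.92, 3.20 and 3.73 in OE against 3.09, 3.37 and 3.69 in OC) and the Mas receptor gene Mas1 (3.24, 3.94 and 4.07 in OE against 3.67, 3.88 and 4.22 in OC) lay below the median signal of the smell and taste genes in both groups. The bile acid receptor gene Nr1h4 differed by 0.01 (95% interval −0.38 to 0.39), the xenobiotic receptor genes Nr1i2 by −0.13 (−0.66 to 0.40) and Nr1i3 by 0.16 (−0.39 to 0.72).

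**Figure D4:**
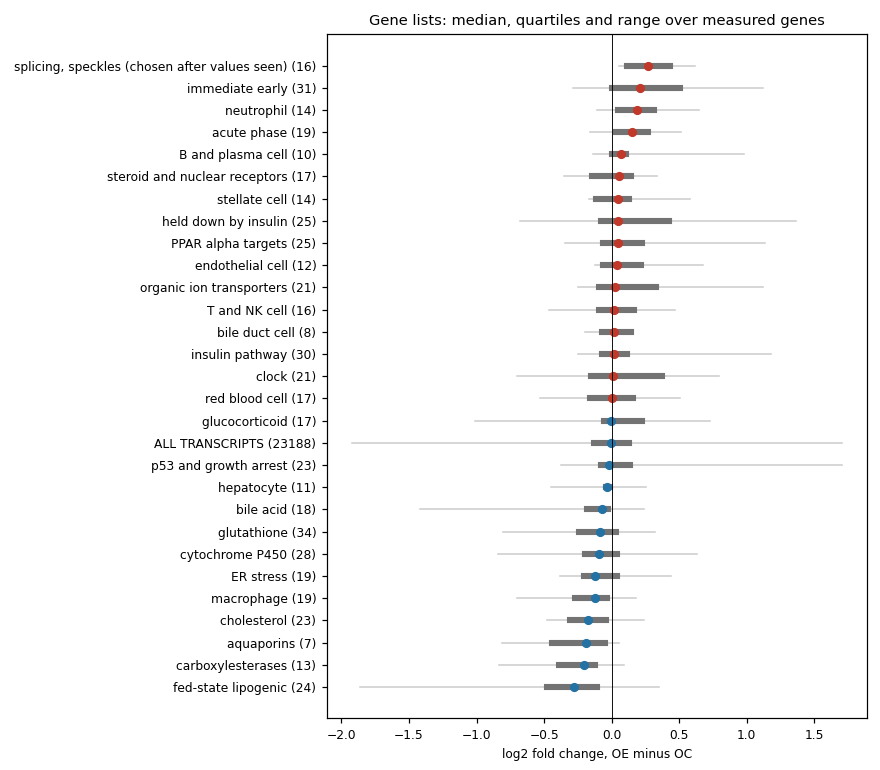
Log2 fold change of OE over OC (x axis) for the measured genes of 28 lists and for all transcripts (y axis, number of genes in brackets), with the median as a point, the quartiles as a thick bar and the range as a thin line. Fed-state lipogenic genes have the lowest median (−0.28) and the splicing genes, chosen after the values were seen, the highest (0.27), beside −0.0021 for all transcripts.

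Clock genes varied widely between rats. These genes, which swing over the day in liver, were higher in 11 and lower in 10 of 21 cases, with none meeting both criteria. The output gene Dbp had 10.07, 12.97 and 14.11 in OE against 9.73, 12.43 and 14.29 in OC, and Arntl, of the opposite phase, had 6.11, 7.85 and 9.63 in OE against 6.66, 8.59 and 9.79 in OC, so that rats of 1 group differed by more than 3 log2 units. A clock score per rat, made after these values were seen as the mean of Dbp, Per3, Nr1d1, Nr1d2 and Ciart minus that of Arntl, Npas2 and Clock, was −1.55 to 3.20 (median 0.59) in OE and −2.15 to 2.26 (median 0.26) in OC. With the score as a covariate, 944 transcripts met both criteria, 822 of them among the 981 found without it. Some leading genes kept differences of like size, at 1.25 for Irs2, 1.34 for Pdk4 and 1.38 for Gimd1 on the log2 scale, and −1.06 for Angptl8. The list medians were −0.24 for fed-state lipogenic genes (−0.28 without the score), −0.13 for cholesterol genes (−0.18) and 0.24 for immediate early genes (0.21). Glucocorticoid-responsive genes were higher in 8 and lower in 9 of 17 cases and none met both criteria. Tsku, a secreted protein of liver, had 9.17, 11.54 and 12.57 in OE against 10.33, 11.78 and 14.55 in OC (FC −2.01, exact permutation p = 0.279).

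Acute phase genes, which liver makes more of in inflammation, were higher in 16 of 19 cases, with a median of 0.15 (0.06 without OE replicate 23), though by limma none met both criteria. Fgb, a fibrinogen chain, had 18.96, 19.10 and 19.51 in OE against 18.79, 18.87 and 19.05 in OC (log2 0.25, exact permutation p = 0.00866), a difference below the FC criterion, and A2m, the rat's alpha-2-macroglobulin, had 7.73, 8.29 and 9.19 in OE against 7.69, 7.76 and 8.19 in OC (log2 0.51, exact permutation p = 0.0281) and met both criteria by the methods' t-test. Genes of ER stress and the heat shock response were lower in 13 of 19 cases, with a median of −0.12 and none meeting both criteria by limma. Without OE replicate 19, 9 were lower and 10 higher, with a median of 0.0013. Hsph1 differed by −0.38 and Pdia4 by −0.25, while Chac1, a glutathione-degrading enzyme of the stress response, was higher with 4.69, 5.32 and 5.55 in OE against 4.31, 4.92 and 5.16 in OC (FC 1.35, exact permutation p = 0.0476) and met both criteria by the methods' t-test.

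Markers of other liver cells were read for the whole of each list. Over all transcripts, 4.23% met both criteria, and these lists are short, so that 1 or 2 members meeting them say little about a cell type. Neutrophil markers were higher in 12 of 14 cases, with a median of 0.19, and the calprotectin genes S100a9 (FC 1.57) and S100a8 (FC 1.47) met both criteria. S100a9 had a lowest, median and highest log2 signal of 5.68, 6.65 and 7.57 in OE rats, against 5.52, 5.89 and 6.35 in OC rats (exact permutation p = 0.0584), and S100a8 had 5.49, 6.20 and 7.35 in OE against 5.13, 5.63 and 6.20 in OC (exact permutation p = 0.102). S100a9 no longer met both criteria by the methods' t-test or without OE replicate 23, and S100a8 no longer met both criteria by the methods' t-test or without OE replicate 23 or OC replicate 13, with 0.33 on the log2 scale without OE replicate 23. With array weights S100a8 did not meet them either. The defining markers Mpo (4.00, 4.17 and 4.58 in OE against 3.78, 4.19 and 4.46 in OC) and Cxcr2 (log2 0.04) lay near background in both groups. The mean of the 14 markers per rat relative to OC was −0.00 to 0.62 (median 0.09) in OE and −0.14 to 0.08 (median 0.01) in OC. The part of these markers in the values of Fos, Junb and Cebpd was not tested.

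Of 10 B and plasma cell markers, 7 were higher and 3 lower (median 0.07), and only Igkc met both criteria, while the B cell markers Cd79a (log2 0.06) and Ms4a1 (0.08) and the plasma cell genes Tnfrsf17 (0.16) and Pou2af1 (−0.10) did not. Macrophage and Kupffer cell markers were lower in 14 of 19 cases (median −0.12). Without OE replicate 24 the median was −0.03, with 11 lower and 8 higher, and without OC replicate 13 it was −0.24. Lgals3, the galectin-3 gene of lipid-laden macrophages, met both criteria with a lowest, median and highest log2 signal of 6.37, 7.45 and 8.75 in OE rats, against 7.50, 8.21 and 8.63 in OC rats (FC −1.63, exact permutation p = 0.0909), and no longer met both criteria by the methods' t-test or without OE replicate 19. The Kupffer cell marker Clec4f differed by −0.26 (95% interval −0.91 to 0.38), Cd68 by 0.15 (−0.36 to 0.65) and Trem2 by −0.30 (−0.79 to 0.19). T and NK cell markers were even, 8 higher and 8 lower.

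Markers of stellate cells and myofibroblasts were higher in 8 and lower in 6 of 14 cases (median 0.05). Lum (FC 1.49, exact permutation p = 0.102) and Col1a1 with 5.88, 6.58 and 7.36 in OE against 5.78, 6.14 and 6.52 in OC (FC 1.37, exact permutation p = 0.0823) met both criteria by limma. Lum no longer met both criteria by the methods' t-test or without OE replicates 19 or 24, and Col1a1 no longer met both criteria by the methods' t-test or without OE replicates 20 or 24 or OC replicates 14 or 17, with 0.29 on the log2 scale without OE replicate 24. Col1a2, the partner chain of the same collagen, differed by −0.15, and Acta2, the marker of activated stellate cells, by −0.17. Red blood cell markers were 9 higher and 8 lower of 17, with Smim1 alone meeting both criteria (FC −1.44, exact permutation p = 0.0455) and Alas2, the haem synthesis gene of red blood cells, at −0.16 (95% interval −0.56 to 0.24). Smim1 no longer met both criteria by the methods' t-test or without OE replicates 22 or 23 or OC replicates 14, 15 or 16, with −0.35 on the log2 scale without OE replicate 23. Endothelial markers were even, 6 of 12 on each side, and bile duct markers were even at 4 of 8. Hepatocyte markers were lower in 9 of 11 cases, by little (median −0.03). The median signal of this list was 19.35, close to the highest of all arrays (19.93). Its small median difference therefore cannot speak to the share of hepatocytes. Cps1, the first enzyme of the urea cycle, met both criteria with 16.80, 17.41 and 17.78 in OE against 17.39, 17.79 and 18.04 in OC (FC −1.35, exact permutation p = 0.0433), but no longer met both criteria without OE replicates 23 or 24. Under quantile normalisation Cps1 did not meet them either. Hnf4a, the factor that defines hepatocytes, had 13.02, 13.39 and 14.44 in OE against 13.65, 14.00 and 14.48 in OC (log2 −0.45, exact permutation p = 0.0931).

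The design also asks whether ecdysterone acted alike in obese and lean rats. LE and LC share no rat with OE and OC, and in them 607 of 23188 transcripts met both criteria (2.62%), 303 higher (1.31%) and 304 lower (1.31%) in LE. The interaction, the difference between both effects, passed an adjusted p of 0.05 for no transcript in limma (lowest adjusted p = 1), and 912 had an unadjusted p under 0.05 (3.93%). For the leading genes given next, the lean differences were smaller in size than the obese ones, but uncertain. Their SE in lean rats was 0.52 for Gadd45a, 0.45 for Irs2, 0.44 for Pdk4 and 0.50 for Angptl8. Of the 78 named genes past both criteria in obese rats, 2 had an unadjusted limma p under 0.05 in lean rats. These were Clec2l (log2 0.53 in obese and −0.40 in lean rats) and Cep112 (0.54 and −0.35). Gadd45a differed by 1.36 in obese and −0.26 in lean rats, Irs2 by 1.18 and 0.14, Pdk4 by 1.13 and 0.19, and Slc22a8 by 1.12 and 0.13, on the log2 scale. The interaction was 1.63 (SE 0.74) for Gadd45a and 1.04 (SE 0.63) for Irs2. Angptl8 differed by −1.13 in obese and 0.50 in lean rats, Scd2 by −1.86 and −0.16, and Gstt3 by −0.80 and 0.12, with an interaction of −1.63 (SE 0.70) for Angptl8. Since none of these differences between genotypes passed the adjustment, and the genes were picked for their values in obese rats, they are not shown to be particular to obesity. Over the fed-state lipogenic list, the median was −0.28 in obese and 0.01 in lean rats, and over the immediate early list 0.21 and −0.05. Both lists were chosen with earlier results of these data known.

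**Figure D5:**
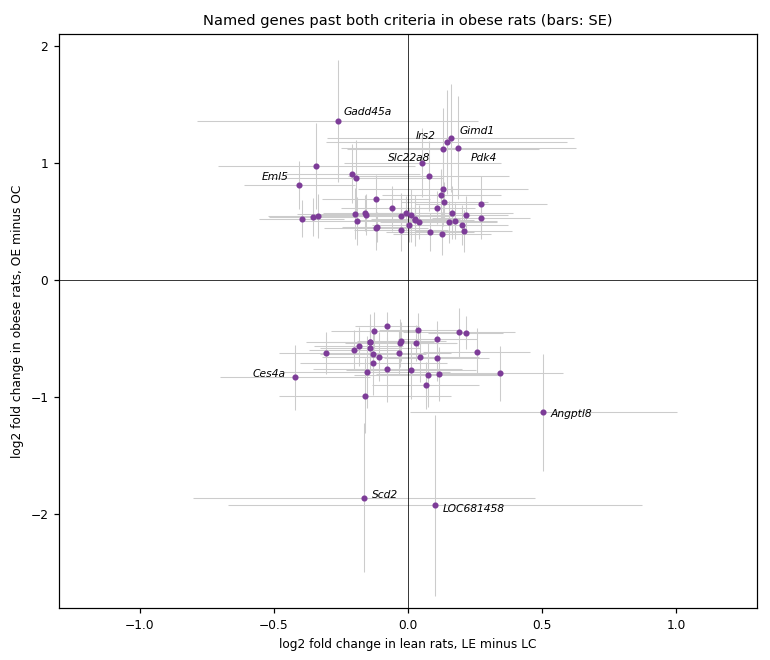
Log2 fold change of OE over OC in obese rats (y axis) against that of LE over LC in lean rats (x axis) for 78 named genes that met both criteria in obese rats, with SE as bars and 6 rats in each group. The genes spread widely along the obese axis because they were chosen on it, and lie between −0.42 (Ces4a) and 0.50 (Angptl8) along the lean axis.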

How the data were processed

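Liver RNA of 24 rats (6 per group) was hybridised to Affymetrix Clariom S rat arrays, and the authors deposited log2 signals per transcript, summarised over all arrays by GCCN-SST-RMA in Affymetrix Expression Console 1.4. A second deposited table held the same log2 values, which differed by at most 0.005. The deposited columns of group means, ratios, fold changes and p-values were not used. The genome build was not given in the sources used here.

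All 23188 transcripts were fitted in limma 3.58.1 (R 4.3.3) with lmFit and eBayes as 4 group means over 24 arrays, and the contrast OE minus OC, the same contrast in lean rats and the interaction were adjusted by Benjamini-Hochberg over all transcripts. The residual degrees of freedom were 20, with 8.4 added by the prior, so that the SE of a gene also takes in the spread among lean rats. Beside the adjusted p threshold of 0.05, the criteria of the methods (FC past 1.3 and unadjusted p under 0.05) were applied. Single genes were also compared by a two-sided exact permutation test over all 924 splits of the 12 obese rats. The fit was tested on simulated data. Each rat counts as 1 replicate, and p-values cover the spread between rats. The number of arrays limits the precision.

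Named genes were the 15 higher and 15 lower with the smallest p among transcripts above the median signal and past FC 1.3, the genes with a fold change in the study, members of each list past both criteria with up to 3 more, defining cell markers and Lepr; others are marked in the text. Lists (insulin-repressed, fed-state lipogenic, cholesterol, PPAR alpha, insulin pathway, immediate early, growth arrest, clock, glucocorticoid, ER stress, acute phase, glutathione, cytochrome P450, transporter, bile acid, receptor, aquaporin, carboxylesterase and cell type genes, and the study's own) were described by counts and medians, with the brightest transcript of a gene. Members and lists were chosen with earlier results of these data known. Symbols of 23 of 27 genes that had been turned into dates were restored through RefSeq accessions. Alternatives were the t-test of the methods, obese arrays alone, folds of linear means, centring, quantile normalisation, signal filters, array weights, robust eBayes with a trend, the second table, the mean over a gene's transcripts and leaving out each rat. A clock score as covariate, counting identical transcripts once and the splicing list were added after seeing the data.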

Additional observations from a re-analysis of the deposited data

Results flagged for a closer look

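Of 312 groups of 6 rats (156 named genes in OE and in OC), 20 (6.41%) had 1 rat far from the other 5, with a gap to the nearest rat above the 95% critical value of Dixon's test. Chance gives this in about 1 in 20 groups, so that the share is near that of chance. OE replicate 23 had the lowest log2 signal for Ddx17 (10.91, next rat 11.39), Dusp1 (11.95, next rat 13.73), Gpam (16.36, next rat 17.93), Pck1 (15.14, next rat 16.12), Slco1a1 (13.87, next rat 14.36) and Srebf1 (14.15, next rat 15.34) and the highest log2 signal for Enpp5 (11.67, next rat 10.83). OE replicate 21 had the lowest log2 signal for Gadd45b (6.61, next rat 6.90) and LOC499136 (7.89, next rat 8.65) and the highest log2 signal for Ces4a (9.69, next rat 8.71). OE replicate 19 had the lowest log2 signal for Cd79a (5.48, next rat 6.61) and the highest log2 signal for Ebp (14.44, next rat 13.97). OE replicate 22 had the lowest log2 signal for Txnrd1 (9.66, next rat 10.05) and the highest log2 signal for Lepr (12.40, next rat 10.83). OE replicate 24 had the lowest log2 signal for Pou2af1 (4.22, next rat 4.88). OC replicate 15 had the lowest log2 signal for Insr (10.94, next rat 11.27) and the highest log2 signal for Cyp2a3 (6.51, next rat 5.94). OC replicate 16 had the highest log2 signal for Akt1 (12.93, next rat 12.52). OC replicate 17 had the highest log2 signal for Eml5 (7.95, next rat 7.58). OC replicate 18 had the lowest log2 signal for Rps29 (17.72, next rat 18.22).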

How the results depend on the processing

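In limma, no transcript passed an adjusted p of 0.05 under any alternative run, and the lowest adjusted p was 0.15, without OE replicate 21. With 1 of the 12 obese rats left out in turn, 890 to 1287 transcripts met both criteria (472 to 656 higher and 418 to 631 lower in OE), 1118 to 1564 had an unadjusted p under 0.05, and of those that met both criteria 627 to 787 were among the 981 found with all rats. The interaction had 844 to 1090 transcripts with an unadjusted p under 0.05 when any 1 of 24 rats was left out. Without transcripts below the median signal, 11594 remained, of which 684 had an unadjusted p under 0.05 and 455 met both criteria, 242 higher and 213 lower, while the interaction had 410; all 455 were among the 981, since that setting tests fewer transcripts. The methods' t-test found 714 transcripts past both criteria, 668 of them shared with limma. Centring and quantile normalisation moved the median of all transcripts by −0.0073 and 0.0015 on the log2 scale. Of 78 named genes past both criteria, 3 to 11 lost them with 1 obese rat left out (11 without OE replicate 23), 11 by the t-test and 2 with the clock score as covariate, and none changed sign. As these genes passed the criteria on the same rats, a kept sign follows largely from that choice and is no test of them. No paired analysis was possible because the labels number the arrays from 1 to 24 and no number is shared between groups. Signal over background limits dim genes: smell and taste receptor genes, the gauge of background, met both criteria in 5.74% of cases.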
